A study of Homo sapiens with 12 samples.

Results

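Expression of 8782 genes was compared between OECM1 and Fadu cells to find those whose level moved in opposite directions when each line was selected for invasion. OECM1 is an established squamous carcinoma line of the oral cavity and Fadu one of the hypopharynx. Each was profiled as parent cells and as an invasion subline, the highly invasive cells collected after invasion through Matrigel, a basement membrane extract. The members of the comparison were chosen by their cell line labels, and 8 of the 12 arrays of the series qualified: 2 of OECM1 parent cells, 2 of the OECM1 invasion subline, 2 of Fadu parent cells and 2 of the Fadu invasion subline. The other 4 arrays are of another line, labelled Detroit, and did not enter the fit. No gene was edited and no drug was named for any of the 4 groups. The labels do not say how many rounds of selection were made or whether a subline was a clone. They also do not say whether duplicates were separate cultures, so the p-values measure only the spread between these arrays, which may be technical.

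Invasion through Matrigel requires a carcinoma cell to attach to, degrade and cross basement membrane, whose scaffold is built from type IV collagen and laminin. AKR1C1, the gene given with this comparison, encodes an aldo-keto reductase that inactivates progesterone and reduces reactive carbonyls. It is known as a target of NRF2, the transcription factor that induces antioxidant and xenobiotic enzymes. The lipid genes described further on are controlled by the SREBP factors, which induce cholesterol and fatty acid synthesis when sterols are low.

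All levels are log2 RMA values, in which a step of 1 is a doubling. The effect of a line is its subline mean minus its parent mean. The difference of effects is the OECM1 effect minus the Fadu effect, so it is positive where a gene was higher in the OECM1 subline and lower in the Fadu subline. Array medians lay between 4.92 and 5.06, and values under 4.50, the 40th percentile of all values, are called dim. The root mean square difference of duplicates was 0.426 in the Fadu subline, 0.487 in Fadu parent cells, 0.507 in the OECM1 subline and 0.756 in OECM1 parent cells, so the OECM1 parent arrays were the least alike. The 8 epithelial and keratin markers on the array were read above the dim limit on at least 2 arrays, with mean levels of 9.78 to 10.06 in Fadu and 8.44 to 9.01 in OECM1. The OECM1 subline arrays, at 8.44 and 8.77, lay below the OECM1 parent arrays, at 9.005 and 9.01, and the keratin KRT5 averaged 5.55 against 7.57; their part in the results was not tested. In OECM1 the basal keratin KRT14 averaged 3.95 in the subline and 4.42 in parent cells, both dim. Mean levels of the fibroblast, endothelial and leukocyte marker lists lay between 3.95 and 4.49 in every group. COL3A1, LUM, FAP, PECAM1, VWF, CDH5, KDR, PTPRC, MS4A1 and LYZ, all on those lists, were dim on all 8 arrays. Other members were not: COL1A1, CLDN5 and CD3D were above the limit on all 8 arrays, COL1A2 and TEK on 7 and DCN on 6, with group means that differed little (COL1A1 5.99 to 6.13, CLDN5 4.87 to 5.16, CD3D 5.43 to 5.64).

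At an adjusted p under 0.05, 0 of 8782 genes (0%) passed the limma test for the difference of effects. At an unadjusted p under 0.05 there were 316 genes, 3.6% of those tested, where chance alone would give 439.1. Of these, 196 differences (2.23%) were positive and 120 (1.37%) negative. The genes nearest the threshold were AKR1C1, with an adjusted p of 0.0509 in limma, and AKR1C2 and GPX2, each with an adjusted p of 0.0520. Within a line, 0 genes (0%) passed for OECM1 and 2 genes (0.0228%) passed for Fadu, against 416 (4.74%) and 244 (2.78%) at an unadjusted p under 0.05. Both fell in the Fadu subline: GPX2 and BST2, each with a limma adjusted p of 0.0322. The text therefore describes opposed genes mainly by their values on each array and calls no opposed gene changed.

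Genes were also counted by whether the arrays overlapped. In 220 genes (2.51%) both OECM1 subline arrays lay above both parent arrays and both Fadu subline arrays lay below both parent arrays. The reverse held for 152 genes (1.73%). Together these 372 genes made up 4.24% of those tested, against 413 (4.7%) whose arrays did not overlap in the same direction in both lines, 196 of them higher (2.23%) and 217 lower (2.47%). Estimates had opposite signs in 4252 genes (48.4%). Opposed genes were thus no more frequent than genes that moved the same way, and the smaller of the 2 effects had a median size of 0.28 among the 372. AKR1C1, AKR1C2 and AGR2 were the 3 genes with at least a 2-fold effect in each line and arrays that did not overlap in opposite directions. At an unadjusted p under 0.05 in each line, 12 genes (0.137%) had opposite signs and 17 (0.194%) had the same sign. The 12 were AKR1C1, AKR1C2, AGR2, TRIM29, PLAT, PRR5, DCXR, TXNRD1 and RTL8A, higher in the OECM1 subline, and SYNCRIP, GUF1 and ACAD8, higher in the Fadu subline.

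**Figure D1:**
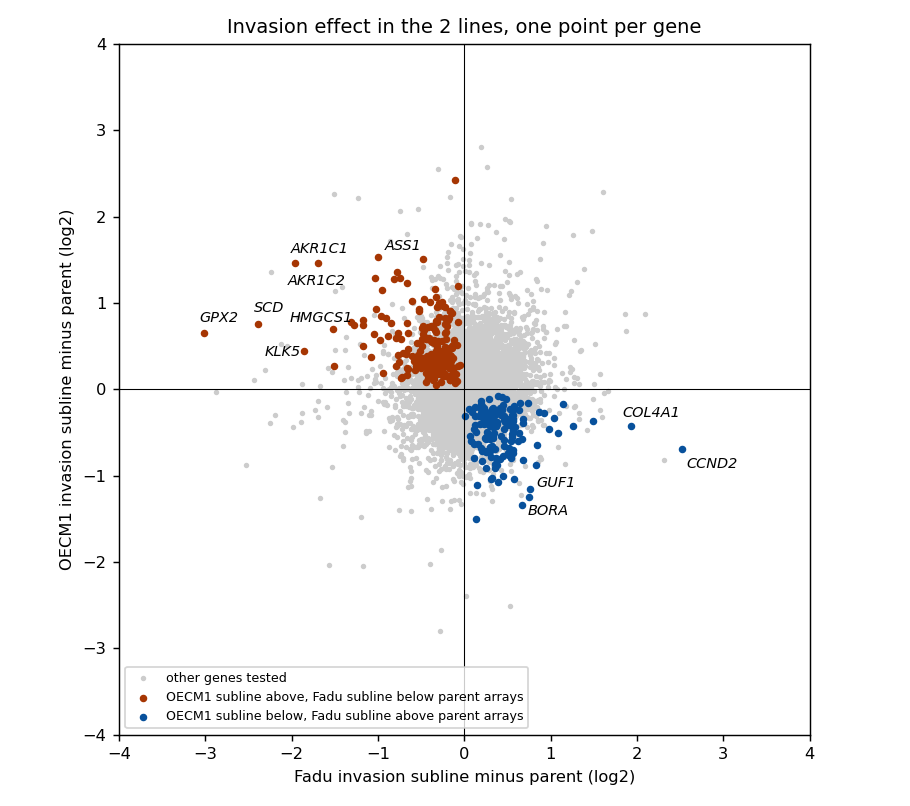
Each point is 1 of the 8782 genes, with the Fadu effect on the x axis and the OECM1 effect on the y axis, both as log2 of subline minus parent. Brown points are the 220 genes whose arrays did not overlap with OECM1 higher and Fadu lower, and blue points the 152 of the reverse pattern. AKR1C1 and AKR1C2 lie apart at the upper left, and GPX2 lies farthest to the left among the brown points.

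AKR1C1 gave the smallest p of any gene. It was at 7.64 and 7.88 on the OECM1 subline arrays and at 6.36 and 6.24 on the OECM1 parent arrays, 2.75-fold higher in the subline. In Fadu the order was turned: 5.43 and 5.49 in the subline and 7.45 and 7.39 in parent cells, 3.89-fold lower in the subline. Duplicates lay close together, and the groups overlapped in neither line. The difference of effects was 3.42 (SE 0.38, 95% confidence interval 2.58 to 4.27, n = 2 arrays per group, limma unadjusted p 5.8e-06 and adjusted p 0.0509). The Fadu parent arrays therefore stood above the OECM1 parent arrays, and the Fadu subline arrays were the lowest of the 8. On the Detroit arrays AKR1C1 was at 5.80 and 9.29 in the subline and at 11.04 and 10.26 in parent cells, the subline lying below the parent as in Fadu.

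AKR1C2, which encodes a near-identical reductase that inactivates dihydrotestosterone, followed the same pattern. It was at 7.06 and 7.18 in the OECM1 subline against 5.82 and 5.49 in the parent. In Fadu it was at 5.09 and 4.92 in the subline against 6.81 and 6.59 in the parent. The difference of effects was 3.16 (SE 0.38, interval 2.31 to 4.01, limma adjusted p 0.0520). The probe sets of these genes are of a kind that can cross-hybridise with near-identical transcripts, so the signal of AKR1C1 and AKR1C2 cannot be told apart here. Of the 2 other AKR1C1 probe sets, one gave a difference of 1.97 without overlap and the other, dim on all 8 arrays, gave 0.13. A second AKR1C2 probe set gave 3.13. AKR1C3, which makes testosterone from androstenedione, was above the dim limit on 1 of the 8 arrays and was not tested, as were AKR1B10, AKR1C4 and AKR1D1. The aflatoxin aldehyde reductases AKR7A2 and AKR7A3 had differences of -0.52 and 0.23. Of 4 aldo-keto reductases tested, only AKR1C1 and AKR1C2 were opposed without overlap, and since AKR1C1 was given with the comparison and both may share signal, nothing is read from that count.

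**Figure D2:**
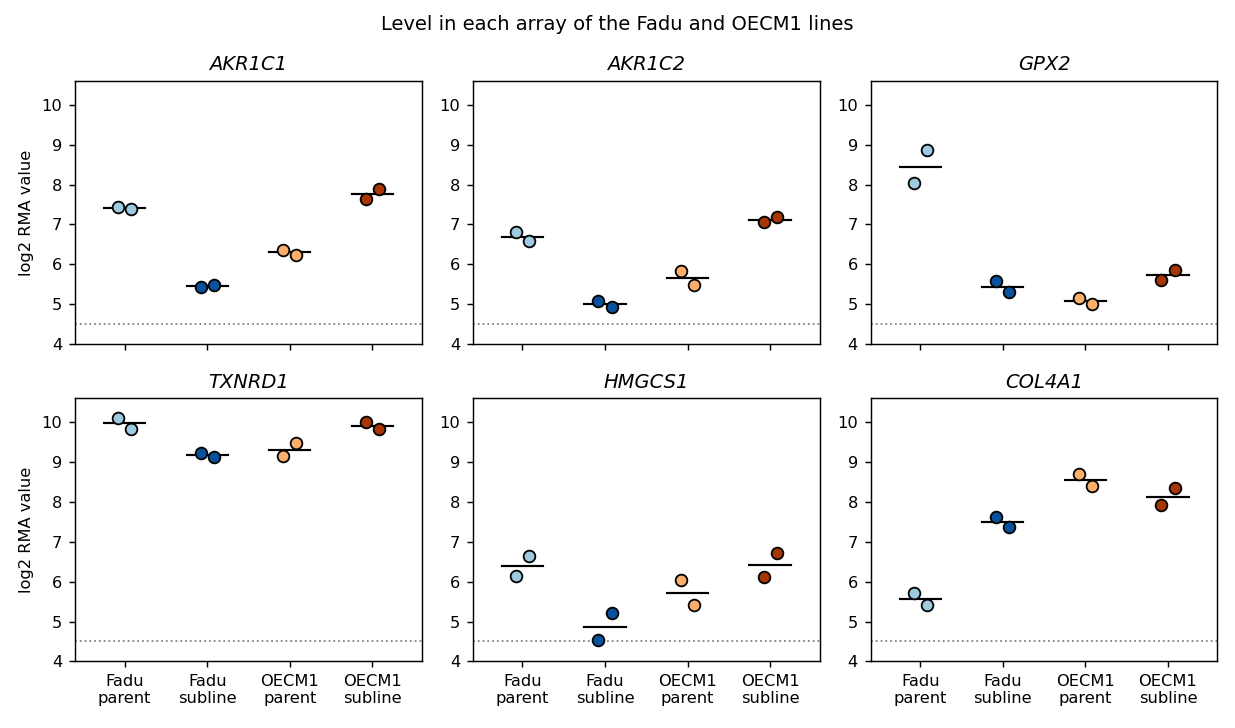
Log2 RMA level on each of the 8 arrays for AKR1C1, AKR1C2, GPX2, TXNRD1, HMGCS1 and COL4A1, with 2 dots per group and a dotted line at the dim limit of 4.50. In the first 5 panels the OECM1 subline dots lie above the OECM1 parent dots and the Fadu subline dots below the Fadu parent dots. COL4A1 shows the reverse.

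The promoters of AKR1C1 and AKR1C2 are shown because the 2 genes had the same opposed pattern, and that of GPX2 because it had the next smallest p. Each is the 250 bases before the annotated start, from RefSeq on GRCh38.p14, written 5′ to 3′ on the strand of the gene. AKR1C1 lies at chr10:4963165-4963414 on the plus strand, AKR1C2 at chr10:5003858-5004107 on the minus strand and GPX2 at chr14:64942746-64942995 on the minus strand. Capitals in the first pair mark ATTGG, the letters of a CCAAT box on the opposite strand, and in GPX2 a match, also on the other strand, to TGACNNNGC, the core of the antioxidant response element that NRF2 binds.
AKR1C1: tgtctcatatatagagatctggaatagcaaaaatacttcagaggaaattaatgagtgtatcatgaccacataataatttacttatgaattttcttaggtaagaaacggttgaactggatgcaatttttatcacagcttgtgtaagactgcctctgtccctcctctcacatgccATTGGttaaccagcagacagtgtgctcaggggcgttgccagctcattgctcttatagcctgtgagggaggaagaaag
AKR1C2: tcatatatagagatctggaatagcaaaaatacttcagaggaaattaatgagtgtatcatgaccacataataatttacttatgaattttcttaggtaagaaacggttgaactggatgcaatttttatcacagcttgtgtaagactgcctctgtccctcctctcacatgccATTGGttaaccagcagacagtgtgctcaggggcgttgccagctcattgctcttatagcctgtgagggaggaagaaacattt
GPX2: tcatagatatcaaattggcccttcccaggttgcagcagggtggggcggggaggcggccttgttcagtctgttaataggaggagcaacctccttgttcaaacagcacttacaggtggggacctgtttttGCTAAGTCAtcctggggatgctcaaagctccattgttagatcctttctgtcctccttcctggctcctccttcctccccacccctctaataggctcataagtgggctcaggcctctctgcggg
The AKR1C1 and AKR1C2 windows of 300 bases, which run on past the start, share an identical run of 245 bases. Within the 250 bases before the start, on both strands, TGACNNNGC occurred in 10.91% and CCAAT in 32.01% of 35116 promoter windows. In the same 250 bases neither AKR1C window holds TGACNNNGC, nor does that of NQO1, while both windows of TXNRD1 do. A match of letters is a description and not a bound site.

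GPX2, a glutathione peroxidase of epithelia that reduces peroxides, had the largest difference of effects among the opposed genes. It was at 5.62 and 5.85 in the OECM1 subline against 5.15 and 5.01 in the parent. In Fadu it was at 5.59 and 5.29 in the subline against 8.04 and 8.86 in the parent. The arrays did not overlap in either line, but the OECM1 effect of 0.66 was small beside the Fadu effect of -3.01. GPX2 fell 8.07-fold in the Fadu subline (limma adjusted p 0.0322), and the OECM1 effect had an unadjusted limma p of 0.0727. The difference was 3.67 (SE 0.46, interval 2.64 to 4.70, adjusted p 0.0520). With the arrays shifted to one median or normalised by cyclic loess, 0 genes passed for the Fadu effect, so the calls of GPX2 and BST2 depend on the scaling. They were also lost when any Fadu array or either OECM1 subline array was left out, and with the replicate number as a block.

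The list of NRF2 antioxidant and xenobiotic genes is not made of targets alone, since it also holds NFE2L2, which encodes NRF2, and its inhibitor KEAP1. Of this list 26 genes were tested and 6 did not overlap with OECM1 higher and Fadu lower, against 2.51% of all genes. None showed the reverse. TXNRD1, the cytosolic thioredoxin reductase, was at 10.003 and 9.82 in the OECM1 subline against 9.15 and 9.47 in the parent, and at 9.24 and 9.14 in the Fadu subline against 10.12 and 9.84. Its difference was 1.39 (SE 0.35). NQO1, a quinone reductase, had an OECM1 effect of 0.41 and a Fadu effect of -0.68. Its other probe sets, with differences of 1.01 and 0.24, overlapped in OECM1 and so were not opposed without overlap. The NQO1 probe set with a difference of 0.24 also overlapped in Fadu, and its OECM1 effect was -0.06. GSR, the glutathione reductase, had effects of 0.40 and -0.53. PGD, of the pentose phosphate pathway, and the fatty aldehyde dehydrogenase ALDH3A2 completed the 6, with differences of 0.74 and 0.80. The difference was positive in 21 of the 26, against 52.6% of all genes, with a median of 0.61 against 0.02. Without GPX2 the median was 0.47. Not every member fell in Fadu: HMOX1, GCLM and TXN were higher in the Fadu subline without overlap, with Fadu effects of 0.72, 0.80 and 0.34. Their differences were -0.62, -0.37 and 0.35, and their OECM1 arrays overlapped. At an unadjusted p under 0.05 there were 7 members, all positive, against 2.23% of all genes.

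On the single arrays, the mean of the 26 genes stood 0.54 and 0.47 below the parent mean in the Fadu subline and 0.18 and 0.28 above it in the OECM1 subline. ALDH3A1, an aldehyde dehydrogenase of the same list named after its values were seen, was lower in the Fadu subline with no matching OECM1 effect. It was at 6.05 and 6.01 in the Fadu subline against 8.12 and 7.70 in the parent. In OECM1 it was at 4.80 and 5.11 against 4.52 and 5.28, with overlap.

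Genes of cholesterol and fatty acid synthesis gave the most opposed members of any list. Of 24 tested, 7 did not overlap with OECM1 higher and Fadu lower and 0 the reverse, against 2.51% and 1.73% of all genes. The difference was positive in 22 of the 24, against 52.6%, with a median of 0.79. At an unadjusted p under 0.05 there were 6, all positive, against 2.23%. HMGCS1, which makes the precursor of mevalonate, was at 6.11 and 6.72 in the OECM1 subline against 6.03 and 5.41 in the parent. In Fadu it was at 4.53 and 5.22 in the subline against 6.13 and 6.65. Its difference was 2.22 (SE 0.53), and the nearest OECM1 arrays, at 6.11 and 6.03, almost met. A second HMGCS1 probe set overlapped in OECM1, with effects of 0.05 and -1.26, so it was not opposed without overlap. SCD, which desaturates fatty acids, was at 10.12 and 10.02 in the OECM1 subline against 10.01 and 8.61 in the parent, and at 7.15 and 7.34 in the Fadu subline against 10.69 and 8.58. Its parent duplicates differed widely in both lines, and the difference of 3.15 had an SE of 0.89. A second SCD probe set, with a difference of 2.80, was opposed without overlap. Those with differences of 2.75 and 2.48 overlapped in OECM1. FASN, the fatty acid synthase, had effects of 0.75 and -1.17, though a second FASN probe set gave a difference of -0.44. SREBF1, which encodes an SREBP factor, had effects of 0.38 and -1.08. SREBF2, FDPS and FADS2 made up the 7, with differences of 1.12, 0.83 and 0.42.

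The lipid genes varied between duplicates. Their mean stood 0.13 and 0.42 above the parent mean on the OECM1 subline arrays, while the parent arrays themselves stood at 0.35 and -0.35, so the OECM1 groups overlapped. In Fadu the subline arrays stood at -0.83 and -0.44 and the parent arrays at 0.21 and -0.21, without overlap. The median difference was 0.48 without Fadu parent array 1 or without OECM1 parent array 2, and 0.53 without Fadu subline array 1. The list's median OECM1 effect, 0.26, was 0.01 without OECM1 parent array 2 and 0.05 without OECM1 subline array 2. It was 0.50 without OECM1 parent array 1 and 0.27 without OECM1 subline array 1. The ratio of 3′ to 5′ ACTB probe sets is a sign of RNA quality described further on. In each pair of duplicates, in both lines, it was higher on the array with the higher lipid mean. With that ratio as a covariate the median difference was 0.88.

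**Figure D3:**
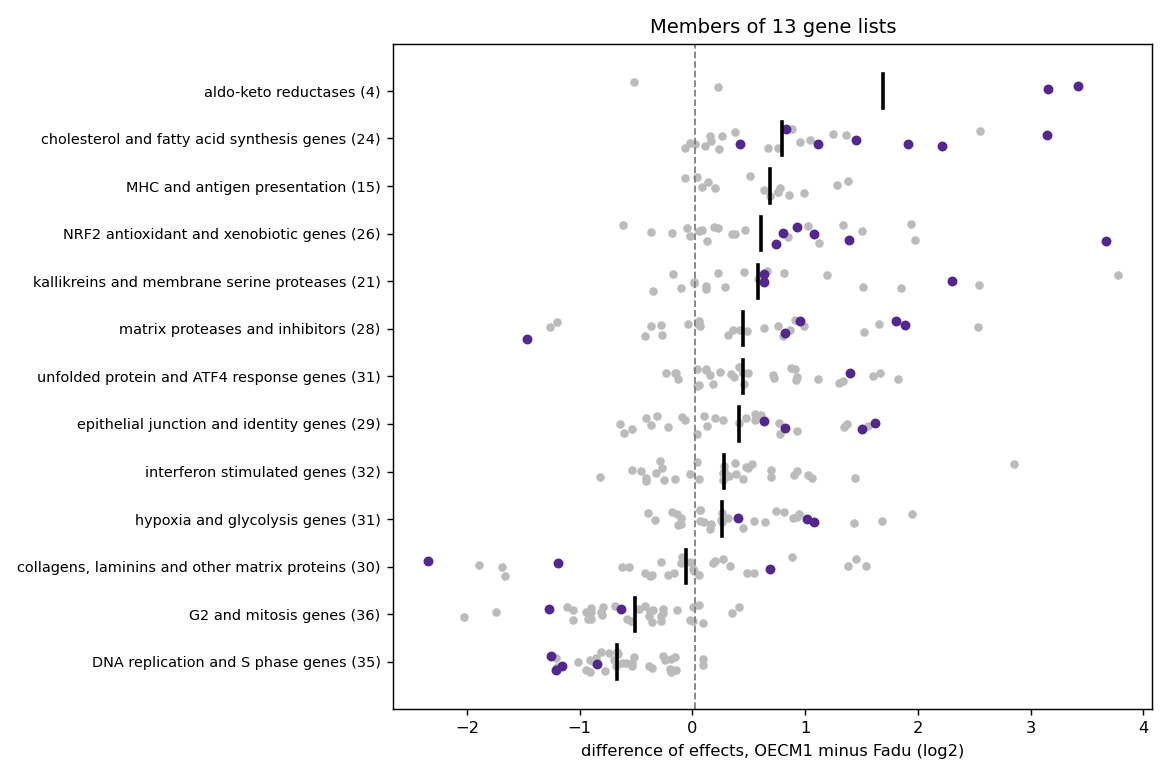
Each point is a tested gene of 1 of 13 gene lists, and the x axis gives its difference of effects (OECM1 minus Fadu, log2). Purple points are members whose arrays did not overlap in opposite directions, black bars are list medians and the dashed line is the median of all genes, 0.02. The lipid and NRF2 lists lie to the right, with medians of 0.79 and 0.61, and the S phase list to the left, with -0.67.

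The other genes with the largest effects in both lines, OECM1 higher and Fadu lower, were a mixed group. AGR2, a protein disulfide isomerase of secretory epithelia, was at 5.75 and 6.26 in the OECM1 subline against 4.58 and 4.84 in the parent. In Fadu it was at 3.94 and 3.97 in the subline, both dim, against 5.69 and 4.27. ASS1, the argininosuccinate synthase of arginine synthesis, was at 7.96 and 8.05 against 6.58 and 6.36 in OECM1 and at 6.78 and 6.68 against 8.50 and 6.95 in Fadu. In both genes 1 of the Fadu parent arrays lay close to the subline, and the difference was 2.33 (SE 0.59) for AGR2 and 2.53 (SE 0.63) for ASS1.

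TRIM29, a regulator of keratinocyte adhesion and stress responses, was at 7.15 and 8.18 in the OECM1 subline against 6.49 and 6.53. In the Fadu subline it was at 7.70 and 7.77 against 8.49 and 8.88. Its 2 other probe sets were not opposed without overlap and gave differences of 0.84 and -0.24. DCXR, a carbonyl reductase of xylulose metabolism, had effects of 0.80 and -1.17, and PRR5, a component of the mTORC2 kinase complex, of 1.28 and -0.81. A second PRR5 probe set overlapped in Fadu, with effects of 0.81 and -0.39. BIK, a pro-apoptotic BH3 protein, had 0.93 and -1.02, and its nearest Fadu arrays, at 7.93 and 7.98, almost met. The matrix protein MATN2 had effects of 0.78 and -1.31, with 6 of the 8 arrays dim. The transporter SLCO3A1 had 1.35 and -0.78, but its second probe set overlapped in OECM1, with an OECM1 effect of 0.24. C2CD2 had 0.82 and -0.90, but its nearest arrays almost met in OECM1, at 6.99 and 6.98, and in Fadu, at 6.62 and 6.63. None of these had an adjusted p under 0.05.

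Among 28 matrix proteases and inhibitors, 4 did not overlap with OECM1 higher and Fadu lower and 1 the reverse, against 2.51% and 1.73% of all genes. The median difference was 0.45, with 20 of 28 positive, against 52.6% of all genes. It came from OECM1, where the list's median effect was 0.56, while in Fadu it was -0.01. The median difference moved with single arrays: it was 0.08 with 15 positive without OECM1 parent array 2, 0.72 without OECM1 parent array 1 and 0.68 without OECM1 subline array 2. PLAT, the tissue plasminogen activator, was at 7.59 and 6.999 in the OECM1 subline against 6.55 and 6.34, and at 4.14 and 4.48 in the Fadu subline, both dim, against 5.50 and 5.03. CSTB, a cathepsin inhibitor, had effects of 1.23 and -0.66. The membrane metalloproteinases MMP15 and MMP14 had differences of 0.95 and 0.82. MMP2, the type IV collagenase, went the other way, with 4.88 and 6.33 in the OECM1 subline against 6.68 and 6.55, and 5.75 and 5.92 in the Fadu subline against 5.22 and 5.55. The MMP2 duplicates of the OECM1 subline differed by more than the OECM1 effect of -1.01.

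Of 21 kallikreins and membrane serine proteases, 3 were opposed without overlap, all with OECM1 higher, against 2.51% of all genes. Of their differences 18 were positive, against 52.6% of all genes, with a median of 0.58, or 0.36 without Fadu subline array 2. KLK5, which activates other kallikreins in squamous epithelium, was at 4.64 and 4.61 in the OECM1 subline against 4.08 and 4.29 in the parent. In Fadu it was at 5.18 and 5.03 against 6.23 and 7.71. The OECM1 levels lay near the dim limit, so most of the difference of 2.30 (SE 0.59) came from Fadu. ST14, known as matriptase, and TMPRSS4 had differences of 0.63 each, and a second ST14 probe set gave -0.36.

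COL4A1, a chain of type IV collagen, had the smallest p among genes with OECM1 lower and Fadu higher. It was at 7.61 and 7.38 in the Fadu subline against 5.72 and 5.41 in the parent, 3.81-fold higher. In OECM1 it was at 7.93 and 8.34 in the subline against 8.71 and 8.41 in the parent, 1.34-fold lower, and the nearest arrays of the groups, at 8.34 and 8.41, almost met. The difference of effects was -2.35 (SE 0.42, interval -3.30 to -1.39, limma adjusted p 0.487). COL4A2, its partner chain, named after its values were seen, was at 9.03 and 9.01 in the Fadu subline against 7.63 and 7.17. In OECM1 it was at 10.24 and 9.96 against 9.93 and 10.35, with overlap, so COL4A2 was not opposed, with a Fadu effect of 1.62 and an OECM1 effect of -0.04. A second COL4A2 probe set had a Fadu effect of 1.32 and an OECM1 effect of 0.27, and a second COL4A1 probe set was opposed without overlap, with a difference of -2.13.

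The 2 collagen genes are transcribed away from each other, and the 126 bases between their starts are shown because both genes were higher in the Fadu subline without overlap. They lie at chr13:110307158-110307283 on GRCh38.p14, from RefSeq, printed on the plus strand with CCAAT in capitals.
COL4A1/COL4A2: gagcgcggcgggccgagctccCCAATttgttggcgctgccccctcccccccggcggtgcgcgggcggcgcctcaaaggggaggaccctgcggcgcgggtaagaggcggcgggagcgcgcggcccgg
TNC, the matrix protein tenascin C, was the other opposed gene of this list with OECM1 lower, with effects of -0.27 and 0.92. FBN1 was opposed with OECM1 higher and a difference of 0.69, its 4 Fadu arrays being dim. A second FBN1 probe set overlapped in Fadu and was not opposed, with an OECM1 effect of 1.90 and a Fadu effect of 0.02. Over all 30 matrix genes tested the median difference was -0.06, and 14 were positive, so COL4A1 did not stand for the list.

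Differences of cell cycle genes were mostly negative. Of 35 DNA replication and S phase genes, 4 did not overlap with OECM1 lower and Fadu higher, against 1.73% of all genes, and 33 of 35 had a negative difference, with a median of -0.67, where 52.6% of all genes were positive. PRIM1, the primase subunit, was at 6.16 and 7.17 in the OECM1 subline against 7.56 and 7.53 and at 7.89 and 8.25 in the Fadu subline against 7.85 and 7.55. RFC3 and RFC4, subunits of the clamp loader, had differences of -1.21 and -0.85, and GINS2, of the replicative helicase, -1.15. Of 36 G2 and mitosis genes, 2 did not overlap in that direction, against 1.73%, and 6 had a positive difference, against 52.6%, with a median of -0.51. This median came from Fadu, where the list's median effect was 0.46. In OECM1 it was -0.07, and it turned to 0.15 without OECM1 subline array 1 and to 0.05 without OECM1 parent array 1. The 2 genes without overlap were NUSAP1, a spindle protein, with effects of -0.75 and 0.51, and the mitotic cyclin CCNB2, with -0.22 and 0.41.

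One array carried much of this shift. The S phase mean stood at -0.82 on OECM1 subline array 1 and at 0.05 on array 2, and the parent arrays stood at 0.26 and -0.26, so the OECM1 groups overlapped. Without OECM1 subline array 1 the S phase median was -0.17, and without array 2 it was -1.18. Without OECM1 parent array 1 it was -0.43. The G2 and mitosis median was -0.32 without OECM1 subline array 1. The log2 ratio of 3′ to 5′ ACTB probe sets, a sign of RNA quality, was 0.06 and 0.63 on OECM1 subline arrays 1 and 2 and 0.87 and 0.04 on the parent arrays. In each OECM1 pair it was thus higher on the array with the higher S phase mean. With that ratio as a covariate the S phase median was -0.59. In Fadu the subline means of the S phase genes, 0.14 and 0.35, lay above the parent means, -0.08 and 0.08. The ACTB ratio was -0.05 and 0.40 on the Fadu subline arrays and 0.55 and -0.23 on the Fadu parent arrays. It was higher on the subline array with the higher S phase mean, but on the parent array with the lower one.

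The remaining genes with the largest reverse effects included further mitotic genes. NCAPG, a condensin subunit, was at 5.56 and 6.36 in the OECM1 subline against 7.14 and 6.85 and at 6.95 and 7.03 in the Fadu subline against 6.32 and 6.51. BORA, an activator of Aurora kinase A, was at 5.57 and 6.54 against 7.32 and 7.46 in OECM1 and at 7.95 and 7.67 against 7.18 and 7.11 in Fadu. Its difference was -2.003 (SE 0.50).

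GUF1, a mitochondrial translation factor, and ACAD8, an enzyme of valine breakdown, had the smallest p of the named genes of this direction after COL4A1. GUF1 was at 4.43 and 4.21 in the OECM1 subline, both dim, against 5.68 and 5.26, and at 5.21 and 5.74 in the Fadu subline against 4.84 and 4.58. ACAD8 had effects of -0.65 and 0.84, but all 4 OECM1 arrays were dim. SYNCRIP, an RNA-binding protein, had effects of -0.88 and 0.83, but none of its 4 other probe sets was opposed without overlap, and their differences ran from -0.82 to -0.17. CCND2, a G1 cyclin, had the largest Fadu effect of the genes named in this direction, 2.52, from 8.41 and 9.90 in the subline against 7.79 and 5.48 in the parent, and its difference of -3.20 had an SE of 1.03. TTF1, a termination factor of RNA polymerase I, UCHL3, a ubiquitin hydrolase, GLMN, PPP2R3C and TOGARAM1 had differences between -1.50 and -1.22, and the small nucleolar RNA SNORA21 had effects of -1.25 and 0.75. A second TTF1 probe set overlapped in both lines, with a difference of -0.58.

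**Figure D4:**
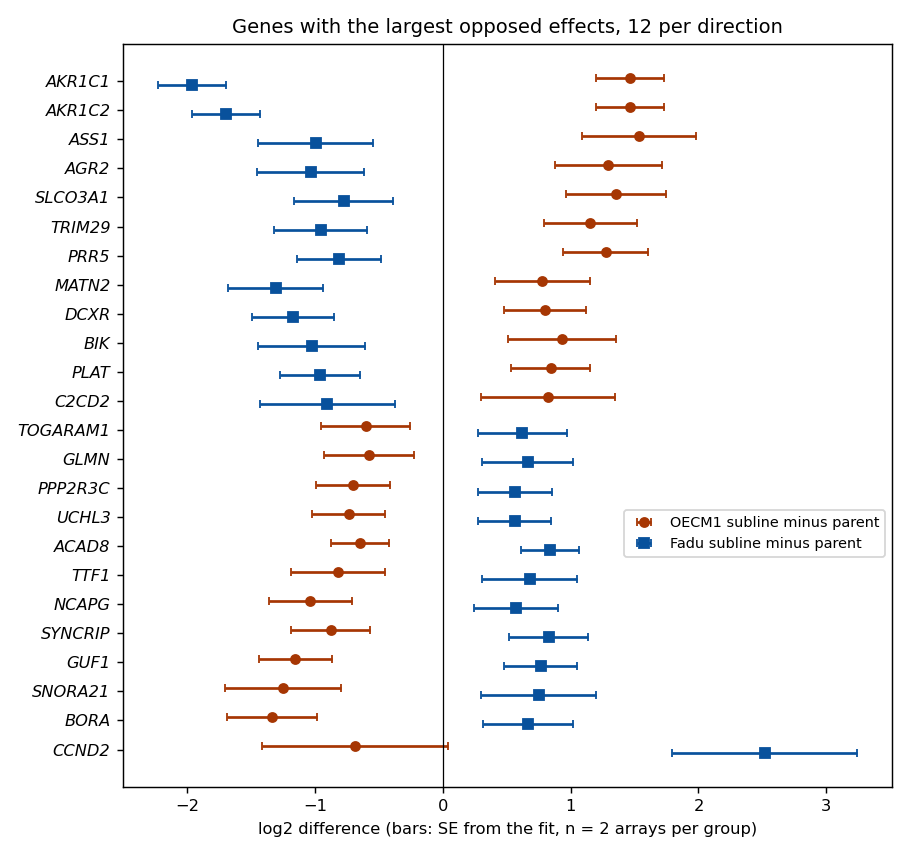
OECM1 effect and Fadu effect (log2 of subline minus parent, with standard error bars from the limma fit) for the 24 genes with the largest smaller effect, 12 in each direction. AKR1C1 and AKR1C2 have the largest effects of the first direction relative to their errors, and CCND2 has the widest error bars.

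Of 29 epithelial junction genes, 4 did not overlap with OECM1 higher and Fadu lower, against 2.51% of all genes: RAB25, a vesicle traffic GTPase, CLDN4, a tight junction claudin, OVOL2, an epithelial repressor, and ST14. Their differences were 1.62, 1.51, 0.82 and 0.63, and the list median was 0.41, or 0.19 without OECM1 subline array 2. Of 31 hypoxia and glycolysis genes there were 3, against the same 2.51%: HK1, a hexokinase, BNIP3L, a mitophagy receptor, and ALDOA, an aldolase. The list median was 0.26, or 0.63 without OECM1 parent array 1, 0.51 without OECM1 subline array 2 and 0.40 without Fadu subline array 1. A second BNIP3L probe set overlapped in Fadu. Single opposed genes, all with OECM1 higher, were the secreted glycoprotein STC2 among 31 unfolded protein and ATF4 response genes, the cytokine LIF among 28 inflammatory genes, the tetraspanin CD9 among 18 integrins and adhesion receptors and the oral epithelial transcription factor PAX9 among 14 basal and simple keratin genes. Over all genes the share opposed in this direction was 2.51%, and single genes in lists of these sizes lie near it. The medians of these 4 lists were 0.45, -0.11, 0.11 and 0.03. That of the unfolded protein list was 0.18 without OECM1 subline array 1, 0.94 without array 2, 0.28 without OECM1 parent array 1 and 0.25 without Fadu parent array 1. The median effect of that list was 0.56 in OECM1 and 0.04 in Fadu. A second STC2 probe set overlapped in OECM1.

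Antigen presentation genes had 14 of 15 differences positive, against 52.6% of all genes, and a median of 0.69, or 0.39 without OECM1 parent array 2. Without OECM1 subline array 1, 11 differences were positive. HLA-B, HLA-C, HLA-E and HLA-F were read by probe sets of the kind that can cross-hybridise, so members may share signal. Of these 15 genes 0 were opposed without overlap, against 4.24% of all genes. Interferon stimulated genes had 0 of 32, with a median of 0.28. In lists of these sizes 0 lies near the share over all genes. BST2, an interferon-induced membrane protein that tethers virions, belongs to that list and was named after its values were seen. It was at 4.76 and 5.35 in the Fadu subline against 8.31 and 7.55, a 7.36-fold fall (limma adjusted p 0.0322), and at 4.62 and 4.71 in the OECM1 subline against 4.69 and 4.70. BST2 was thus not opposed, since its OECM1 arrays lay together just above the dim limit.

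Lists with 0 opposed genes were also the squamous differentiation (18 tested, median 0.13), TGF-beta and BMP response (24, 0.33), YAP and TEAD target (16, -0.18), EGFR and MAPK feedback (22, 0.09), p53 (14, 0.01) and actin cytoskeleton genes (28, 0.03). Over all genes 4.24% were opposed, so 0 in lists of these sizes lies near that share. Of 20 mesenchymal genes 0 were opposed, and 5 were higher in both sublines without overlap, against 2.23% of all genes: PDPN, MYL9, LGALS1, SNAI2 and TWIST1. The median difference of that list was 0.02.

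The genes whose pattern over the 8 arrays was most like that of AKR1C1 were found by Pearson correlation, as a description. AKR1C2 had r = 0.992, and CA11, HMGCS1, RTL8A, FASN, TXNRD1, STUB1 and KIF5A had r between 0.947 and 0.873. The 8 points include both line and selection effects. All 8 genes were opposed without overlap in the direction of AKR1C1, with differences from 0.17 for CA11 to 3.16 for AKR1C2. CA11 spanned only 4.58 to 4.73, so a high r did not mean a large change.

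The position of AKR1C1 relative to the threshold depended on the setting. Its difference stayed between 3.30 and 3.54 when any 1 of the 8 arrays was left out, with limma adjusted p from 0.0479 to 0.401. It passed when the intensity trend was left out (adjusted p 0.0306), with robust moderation (0.0430), with array weights (0.0471), with the ACTB probe ratio, a measure of RNA integrity, as a covariate (0.0204) and with a filter at the 60th percentile (0.0242). It was far from the threshold with the spread taken from all 12 arrays (SE 1.16, adjusted p 0.9997) and did not pass with no filter (0.0657) or with the arrays shifted to one median (0.0713). The mean of all probe sets, which includes the dim one, gave a difference of 1.84. On the single arrays that ratio ran from -0.23 to 0.87, and duplicates differed in it more than group means did. The group means were 0.172 and 0.160 in the Fadu subline and parent and 0.346 and 0.453 in those of OECM1.

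**Figure D5:**
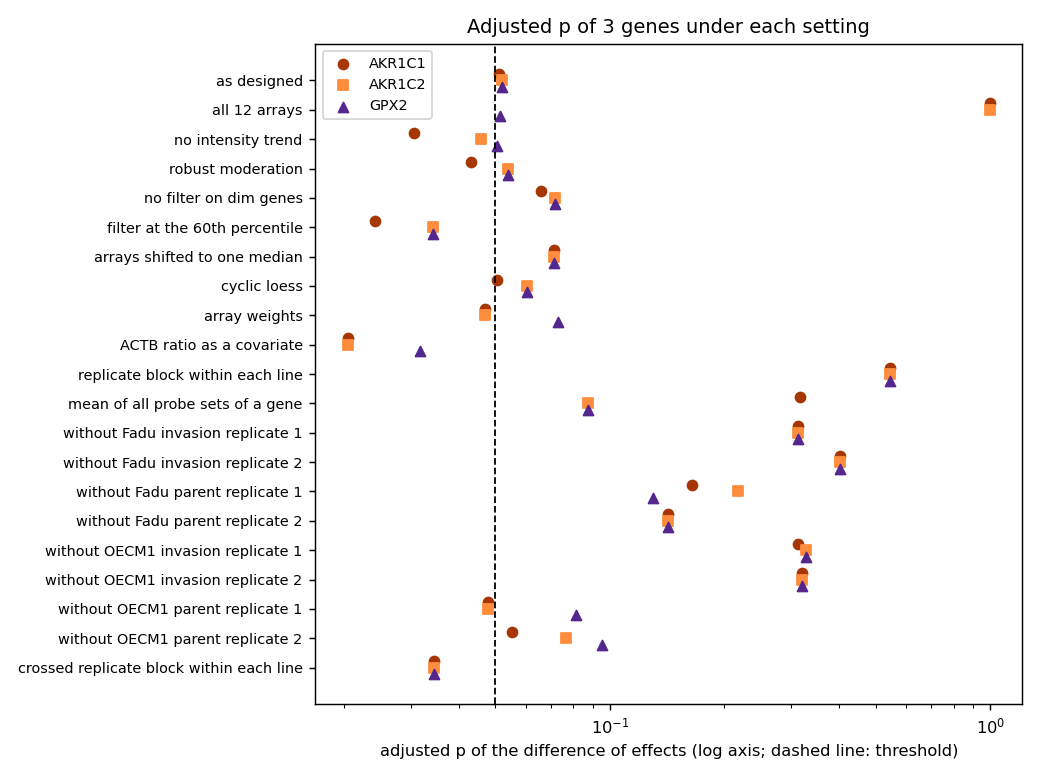
Adjusted p of the difference of effects for AKR1C1 (circles), AKR1C2 (squares) and GPX2 (triangles), on a log axis, under each setting, with a line at 0.05. As designed, all 3 lie just right of the line, at 0.0509, 0.0520 and 0.0520.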

How the data were processed

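RNA of 12 samples, 1 Affymetrix array each, was measured, and the 8 Fadu and OECM1 arrays were used. The deposited values are log2 expression values, made by the authors with RMA, a method of background subtraction, quantile normalisation and probe summary that the submitters' processing notes name beside Partek 7. How both tools were combined, the genome build and the annotation are not given in the sources used here. Because RMA draws low values together, changes of dim genes are understated, and the number of arrays limits the precision.

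Of 22283 probe sets, 68 were controls, 19065 had 1 gene symbol, 1043 had several and 2107 had none. The RefSeq gene table held 19053 of their identifiers and updated 0 symbols. A gene was represented by its probe set of highest mean over the 8 arrays. Of 11963 genes, 8782 had at least 2 arrays above the 40th percentile.

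A model with 4 group means (limma 3.58.1, R 4.3.3) used empirical Bayes moderation and an intensity trend, with 4 residual degrees of freedom, and p-values were adjusted by Benjamini-Hochberg over 8782 genes. This fit was also tested on simulated data. Replicate numbers were not taken to pair the arrays: same-numbered deviations of subline and parent correlated at -0.384 in Fadu and -0.403 in OECM1, and those between groups of different lines at -0.315 to 0.282.

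Named were AKR1C1, the 12 genes per direction with non-overlapping opposed arrays and the largest smaller effect, and up to 4 such members of each of 23 lists. Other genes are marked in the text as named after their values were seen, or complete a count. The members and lists were chosen with earlier results of these data known. Alternatives were the moderation, filter, scaling, array weights, a covariate, blocks, the probe set rule and leaving out each array.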

Additional observations from a re-analysis of the deposited data

How the results depend on the processing

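The difference of effects for AKR1C1 kept its sign in every alternative run. It passed the limma threshold with no intensity trend (3.42, adjusted p 0.0306), robust moderation (3.42, 0.0430), a filter at the 60th percentile (3.42, 0.0242), array weights (3.42, 0.0471), the ACTB ratio as a covariate (3.44, 0.0204) and without OECM1 parent array 1 (3.48, 0.0479). Leaving out each array in turn gave 3.30 to 3.54, the lone array being assumed to vary like the other groups. The number of genes called, 0 as designed, was 2 with no intensity trend, 1 with robust moderation, 3 with the 60th percentile filter, 2 with array weights, 3 with the ACTB covariate and 0 to 2 when arrays were left out. All of them were opposed genes, from AKR1C1, AKR1C2 and GPX2. The number called was 0 with all 12 arrays, no filter, either rescaling or the mean of all probe sets, and 0 genes had both line effects called under any setting. With the replicate block the count was 0, AKR1C1 had an adjusted p of 0.544, and 182 genes had an unadjusted p under 0.05. Same-numbered arrays deviated in opposite directions, so a crossed replicate block was added after seeing the data, and it called 4 genes, 3 of them opposed.

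Non-overlapping opposed genes with OECM1 higher numbered 345 with no filter, against 220. When 1 array was left out these counts ran from 360 to 695 with OECM1 higher and from 241 to 643 with OECM1 lower, because a lone array is less often overlapped, so they cannot be set against 220 and 152. Over the named genes no alternative turned a sign. AKR1C1 and most other named genes have non-overlapping opposed arrays, so leaving out an array could not turn the sign of their difference. Settings that change only the error or the genes kept left the estimate as it was. Of 34 other probe sets of the named genes, 31 had a difference of the same sign. Many of these overlapped in a line, so they were not opposed without overlap. With 2 arrays per group the median SE of a difference was 0.446, which limits what can pass.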
